A study of Mus musculus with 16 samples.

Results

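Counts of 49 mature microRNAs from the imprinted Dlk1-Dio3 region were examined among the 1915 mature microRNA entries of a table from mouse extracellular vesicles (EVs). The 49 members were taken as the entries whose name equalled a name on a list of microRNAs from that region. The table writes them with a species prefix (mmu-miR-127-3p, mmu-miR-134-5p, mmu-miR-379-5p, mmu-miR-411-5p and so on), which is left out here. The EVs came from bone marrow plasma of mice on a C57BL/6N background, killed at an age of 6 months, and all carried the CAGS-Snorkel reporter. In the Ocn group (6 mice, 3 of each sex) the reporter was combined with Ocn-Cre, whose osteocalcin promoter is active in mature osteoblasts and osteocytes. In the Prx1 group (10 mice, 5 of each sex) it was combined with Prx1-Cre, which is active in early limb mesenchyme and marks its descendants, so the cells with Cre activity differ in kind and in number between the groups. EVs from both groups were captured on magnetic beads through the HA tag, and 1 ng of RNA per mouse was made into a small-RNA library. Libraries from mice without Cre were not analysed here, so no background of unspecific capture stands beside the values, and sex is not given per library.

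The Dlk1-Dio3 region is an imprinted domain, in which a gene is read from the chromosome of 1 parent. The maternal chromosome gives long non-coding transcripts (Meg3, Rian, Mirg) that carry many microRNA hairpins and small nucleolar RNAs, and the paternal chromosome gives the proteins Dlk1, Rtl1 and Dio3. Its microRNAs are known to be abundant in the embryo, placenta and brain, and Meg3 is also known in mesenchymal and bone-forming cells. A mature microRNA guides a silencing complex to messenger RNAs mainly through its seed, the bases 2 to 8 from the 5′ end.

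The sequences of the 7 members with enough counts to be tested, and of miR-300-3p, which is close in sequence to one of them, are given because all comparisons below rest on these short RNAs. They are from RefSeq (assembly GRCm38.p6), are written 5′ to 3′, and have the seed in capitals.
miR-127-3p: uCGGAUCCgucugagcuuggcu
miR-434-3p: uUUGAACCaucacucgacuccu
miR-379-5p: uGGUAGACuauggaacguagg
miR-411-5p: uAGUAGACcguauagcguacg
miR-300-3p: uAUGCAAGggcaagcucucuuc
miR-381-3p: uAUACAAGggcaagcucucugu
miR-382-5p: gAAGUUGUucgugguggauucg
miR-541-5p: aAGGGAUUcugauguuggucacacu

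All but 3 of the members had a RefSeq sequence (46 of 49; the 3 without are miR-376c-3p, miR-485-5p and miR-487b-3p). Among the 46 there were 46 distinct seeds, so no members could be grouped by a shared seed. The distinct seeds still include near copies. miR-300-3p and miR-381-3p had the same base at 19 of 22 positions, and differed by G4A, U21G and C22U (miR-300-3p first, positions counted from the 5′ end), of which 1 lies in the seed. miR-379-5p and miR-411-5p had the same base at 14 of 21 positions and differed in the seed by G2A alone (miR-379-5p first). miR-376a-3p and miR-376b-3p shared 18 of 21 bases. In pairs with only 3 differences, as for miR-300-3p and miR-381-3p or miR-376a-3p and miR-376b-3p, counts could be split by how short or trimmed sequences were assigned. The sources used here do not give that step. miR-379-5p and miR-411-5p differed at 7 positions.

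The members come from 42 hairpins, and the GENCODE annotation of mm10 places all 42 on the plus strand of chromosome 12, between Dlk1 and Dio3, within 171.806 kb. Of the 49 members, 11 lie in a block next to Meg3 (miR-673 to miR-136), 2 lie in introns of Rian (miR-341 and miR-370), and 36 lie in the distal miR-379 to miR-410 cluster. In the first block, 7 members (of the miR-431, miR-433, miR-127, miR-434 and miR-136 hairpins) lie opposite an exon of Rtl1, a gene derived from a retrotransposon and needed in the placenta, and are perfectly complementary to its transcript. In the distal cluster, 14 members lie in Mirg.

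**Figure D1:**
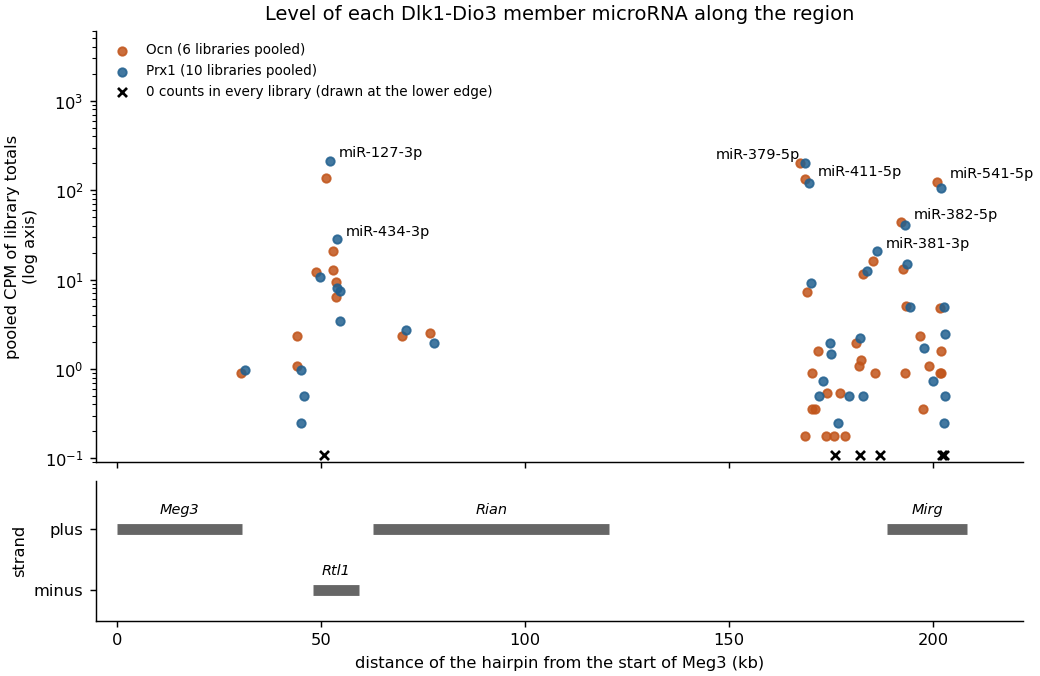
Pooled CPM of each member (log axis; counts scaled to the library totals, 6 Ocn or 10 Prx1 libraries together) against the distance of its hairpin from the start of Meg3 in kb, with the genes below by strand. Ocn and Prx1 points are set slightly apart sideways, the 7 tested members are named, and crosses mark the 6 members at 0 in every library; the named members lie in the block opposite Rtl1 and in the distal cluster.

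Ocn libraries had totals of 582660 to 1536421 counts and Prx1 libraries of 225273 to 813770, so Prx1 totals were mostly lower. Depth here means this total of microRNA counts, as the number of reads sequenced was not examined. The labels give each library as a separate sample, and p-values measure the spread between these samples. Levels are given as CPM, the count of an entry relative to its library's total in the usual scaling. The 49 members together held 7748 of 9663370 counts, or 0.0802%. Low levels in bulk EV material have several readings: fewer EVs carrying a microRNA and less of it per EV cannot be told apart.

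The 49 listed members were detected often but at low level. In all, 43 of the 49 members had at least 1 count in some library (87.8%, against 50.8% of all 1915 entries), and 8 of them had counts in all 16 libraries. The list leaves out most second arms, and of 63 other entries of the region 19 had a count (30.2%). The higher share therefore describes the listed arms and not the region as a whole. A further 12 were found in 8 to 15 libraries and 23 in 1 to 7 libraries. The members at 0 in every library were miR-410-3p, miR-412-5p, miR-433-3p, miR-539-5p, miR-654-3p and miR-666-5p, and 0 counts over the 16 libraries allows up to 0.310 CPM (3 counts, counting error only). These 6 are spread over both main blocks: miR-433-3p is cut from a hairpin opposite Rtl1, and miR-410-3p marks the far end of the distal cluster.

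Each Ocn library had counts for 22 to 33 members (27.0 ± 4.77, SD, n = 6), and each Prx1 library for 16 to 26 (20.3 ± 2.87, SD, n = 10). Most of that gap went with depth. At the total of the shallowest library, 225273 counts, 18.8 ± 1.52 members would be expected per Ocn library (SD, n = 6) and 17.8 ± 2.70 per Prx1 library (SD, n = 10), a difference smaller than the spread in either group. The 8 members found in Ocn alone, such as miR-376a-3p with 7 counts and miR-380-5p with 5 counts, and the single member found in Prx1 alone, miR-665-3p with 2 counts, had few counts in all. Over the 10 Prx1 libraries together, 0 counts allows up to 0.739 CPM (3 counts, counting error only), and pooled Ocn levels were 1.25 CPM for miR-376a-3p and 0.892 CPM for miR-380-5p. These Ocn levels carry counting error too, and 5 of the 7 counts of miR-376a-3p came from Ocn 5, the deepest library. Absence from Prx1 is therefore not shown. The share of all entries found in 1 group alone was not computed.

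The summed level of the members was similar in the groups and varied more among Prx1 mice. It ran from 623 CPM (Ocn 1) through a median of 754 to 911 CPM (Ocn 5) in Ocn, and from 438 CPM (Prx1 2) through a median of 778 to 1175 CPM (Prx1 10) in Prx1. The means were 761 ± 96.7 CPM (SD, n = 6) and 817 ± 263 CPM (SD, n = 10), and the Ocn range lay inside the Prx1 range. The coefficient of variation was 12.7% in Ocn and 32.2% in Prx1, where counting error alone would give 3.94% and 5.83%. No test was made of the sum, which is a score over chosen members.

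The lowest member sums were those of 3 Prx1 libraries. Prx1 1, Prx1 2 and Prx1 3 had sums of 569, 438 and 542 CPM, the lowest of all 16 libraries. The other 7 Prx1 libraries ran from 691 to 1175 CPM. Single members could differ from the sum: miR-434-3p stood at 41.35 CPM in Prx1 1, above the highest Ocn value of 34.3 CPM. Fold changes of the tested members and numbers of correlated pairs are given with and without Prx1 1, 2 and 3, a choice made after their values were seen. The coefficient of variation of the Prx1 sums includes these 3 libraries and was not computed without them. The log2 ratio of the mean sums, Ocn over Prx1, was -0.10 with all libraries and -0.31 without these 3. Leaving out the lowest Prx1 sums lowers this ratio by construction.

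**Figure D2:**
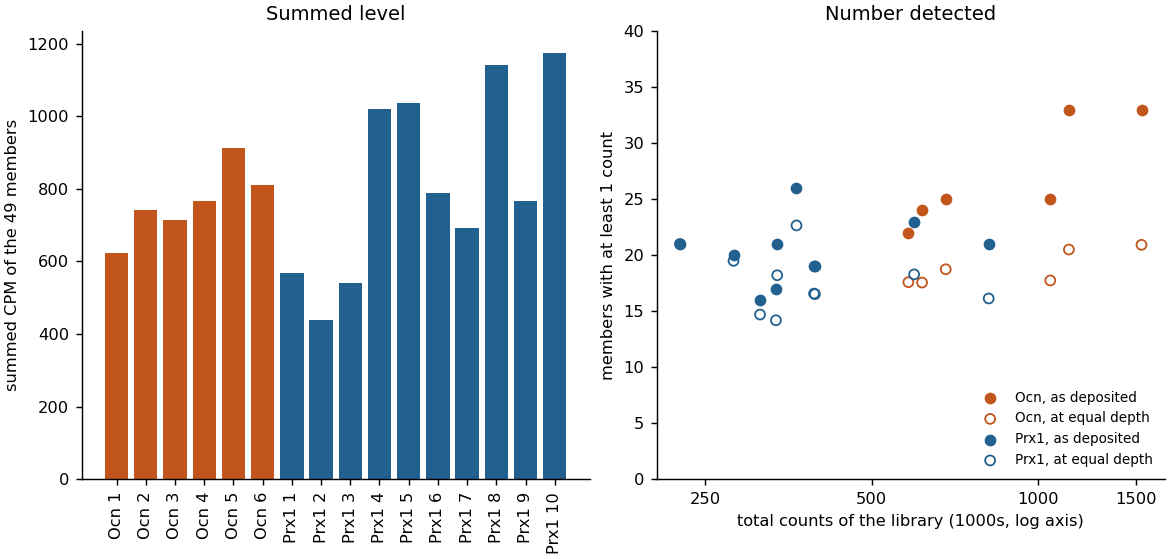
Left, summed CPM of the 49 members in each of the 6 Ocn and 10 Prx1 libraries; right, members with at least 1 count against the library total (log axis), as deposited (filled) and expected at 225273 counts (open). Prx1 1, 2 and 3 have the lowest sums (438 to 569 CPM), and the open points of the groups overlap.

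Few members carried the signal. miR-379-5p, miR-127-3p, miR-411-5p and miR-541-5p held 76.4% of all member counts, and the 7 members that passed the low-count filter held 87.0%. These 4 took 75.4% ± 1.895 of the member counts of an Ocn library (SD, n = 6) and 77.9% ± 4.70 of those of a Prx1 library (SD, n = 10). At the other end, 20 detected members had 1 to 9 counts over all 16 libraries. The 7 that passed are a minority: 16.3% of the detected members passed, against 24.0% of all detected entries.

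The members cut from hairpins opposite Rtl1 come first. miR-127-3p, which directs cleavage of the Rtl1 transcript, was the most abundant of them and ranked 121 among all entries (mature sequence at chr12:109592888-109592909, plus strand, mm10). It ran from 95.7 CPM (Ocn 1) through a median of 134.2 to 169 CPM (Ocn 6) in Ocn. In Prx1 it ran from 94.0 CPM (Prx1 7) through a median of 182 to 335 CPM (Prx1 5). The groups overlapped, but 5 of the 10 Prx1 libraries (4, 5, 8, 9 and 10) lay above every Ocn library. The means were 135.5 ± 25.6 CPM (SD, n = 6) and 209 ± 90.4 CPM (SD, n = 10). The log2 fold change, Ocn over Prx1, was -0.65 (SE 0.245, 95% interval -1.13 to -0.17), which corresponds to 1.57-fold higher in Prx1 and missed the threshold (edgeR, p = 0.0138, adjusted p = 0.0768).

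The call for miR-127-3p turned with single libraries. Without Prx1 7, where it was lowest, the log2 fold change was -0.75 (edgeR adjusted p = 0.0304), and without Prx1 1, 2 and 3 it was -0.87 (edgeR adjusted p = 0.0432). Over all 28 alternatives the value lay below 0, from -0.87 to -0.50, with adjusted p from 0.0304 to 0.276. Prx1 1, 2 and 3 were chosen by their low member sums, so the value without them is a description.

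miR-434-3p, from the next hairpin opposite Rtl1 (mature sequence at chr12:109594565-109594586), was far less abundant than miR-127-3p, with 230 against 1635 counts over all libraries. It ran from 12.97 CPM (Ocn 1) through a median of 19.7 to 34.3 CPM (Ocn 3) in Ocn. Prx1 libraries ran from 5.96 CPM (Prx1 2) through a median of 26.6 to 54.7 CPM (Prx1 10). Its groups overlapped in both directions, with 3 Prx1 libraries above and 2 below every Ocn library. The log2 fold change was -0.47 (SE 0.337), with an edgeR adjusted p of 0.371, and -0.71 without Prx1 1, 2 and 3 (edgeR adjusted p = 0.138).

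The remaining members opposite Rtl1 were too low to test. Ocn libraries averaged 12.1 ± 2.68 CPM of miR-431-5p (SD, n = 6) and Prx1 libraries 10.5 ± 10.2 CPM (SD, n = 10). Its Prx1 values were uneven, with 0 counts in Prx1 1 and Prx1 2 but 20.1 to 27.95 CPM in Prx1 6, 7 and 8, above the highest Ocn value of 14.97 CPM. miR-434-5p, the other arm of the miR-434 hairpin, stood at 12.6 ± 9.57 CPM in Ocn against 7.39 ± 4.55 CPM in Prx1. Both arms of miR-136 were seen, miR-136-3p at 8.88 ± 2.60 and 6.82 ± 4.14 CPM and miR-136-5p at 6.17 ± 2.57 and 3.74 ± 3.23 CPM in Ocn and Prx1. The ranges of all 4 overlapped between the groups.

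The distal cluster begins with miR-379-5p (mature sequence at chr12:109709065-109709085, with no gene on the same strand around its hairpin in the annotation). It was the most abundant member, with 1937 counts, and ranked 115 among all entries. It ran from 169 CPM (Ocn 1) through a median of 194 to 221 CPM (Ocn 5) in Ocn. Prx1 libraries ran from 119 CPM (Prx1 3) through a median of 211 to 281 CPM (Prx1 5). The Ocn libraries sat in the middle of the Prx1 range, with 5 Prx1 libraries above and 4 below all of them. The log2 fold change was -0.08 (SE 0.173, 95% interval -0.42 to 0.26; edgeR adjusted p = 0.822). Its sign was positive under 4 of the 28 alternatives, so no direction is given for it. Without Prx1 1, 2 and 3 the value was -0.31 (edgeR adjusted p = 0.195).

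miR-411-5p, from the next member hairpin along the chromosome (mature sequence at chr12:109710190-109710210), ran from 109 CPM (Ocn 1) through a median of 123.6 to 160 CPM (Ocn 5) in Ocn. In Prx1 it ran from 73.2 CPM (Prx1 1) through a median of 114 to 210.5 CPM (Prx1 10). Prx1 1, 2, 3 and 7 lay below every Ocn library and Prx1 8 and 10 above. The log2 fold change was 0.08 (SE 0.201; edgeR adjusted p = 0.849) with all libraries and -0.17 without Prx1 1, 2 and 3.

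miR-541-5p and miR-382-5p lie in introns of Mirg, at chr12:109742422-109742446 and chr12:109733781-109733802. miR-541-5p ran from 87.5 CPM through a median of 112 to 159 CPM (Ocn 5) in Ocn. Prx1 libraries ran from 32.8 CPM (Prx1 2) through a median of 115 to 148 CPM (Prx1 5). No Prx1 library exceeded the highest Ocn library, and 3 (Prx1 1, 2 and 3) fell below the lowest. The log2 fold change was 0.14 (SE 0.220; edgeR adjusted p = 0.737) and -0.12 without those 3.

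miR-382-5p ran from 32.6 CPM (Ocn 3) through a median of 42.9 to 60.2 CPM (Ocn 6) in Ocn. In Prx1 it ran from 8.93 CPM (Prx1 2) through a median of 38.8 to 73.7 CPM (Prx1 8). Prx1 2 and 3 held 3 and 5 counts of it, and with Prx1 1 they were the only libraries below the Ocn range. Its log2 fold change was 0.13 (SE 0.300; edgeR adjusted p = 0.834), and -0.24 without Prx1 1, 2 and 3.

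miR-381-3p (chr12:109726870-109726891) was the least abundant member tested. It ran from 10.3 CPM (Ocn 6) through a median of 12.3 to 25.9 CPM (Ocn 1) in Ocn. In Prx1 it ran from 0 (Prx1 1) through a median of 16.3 to 54.7 CPM (Prx1 10), and Prx1 2 and Prx1 3 held 1 count each. The Prx1 range enclosed the Ocn range, and the log2 fold change was -0.36 (SE 0.465; edgeR adjusted p = 0.688). It was -0.83 without Prx1 1, 2 and 3 (edgeR adjusted p = 0.162) and -0.08 without Prx1 10, its highest library (edgeR adjusted p = 0.926). Its near copy miR-300-3p was detected in all 16 libraries, with Ocn levels of 10.98 ± 3.30 CPM (SD, n = 6) and Prx1 levels of 12.8 ± 5.51 CPM (SD, n = 10), and had 3 counts in Prx1 1, where miR-381-3p had 0.

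Other distal members stayed near 10 CPM or below. miR-134-5p, known in neurons for limiting dendritic spine growth through Limk1, lies in an exon of Mirg and stood at 12.1 ± 6.97 CPM in Ocn against 13.3 ± 7.70 CPM in Prx1. It had 0 counts in Ocn 3 and was highest in Prx1 8, at 30.2 CPM. miR-299a-5p had 6.88 ± 3.08 and 9.82 ± 5.98 CPM, and miR-409-3p had 5.67 ± 4.15 and 5.03 ± 2.08 CPM, in Ocn and Prx1. The groups overlapped for all of these, and none passed the low-count filter. In the middle block, miR-341-3p and miR-370-3p together summed to 4.89 ± 2.70 CPM in Ocn against 4.38 ± 3.54 CPM in Prx1.

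**Figure D3:**
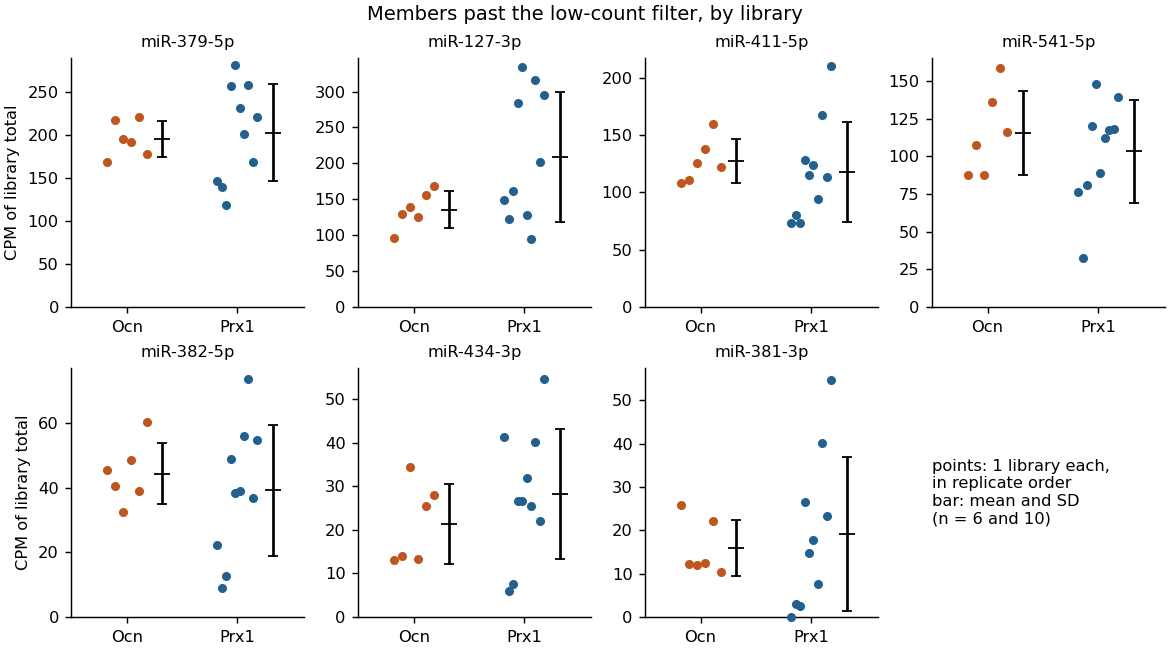
CPM of the 7 tested members in each library (points, in replicate order) with the mean and SD of each group (n = 6 Ocn and n = 10 Prx1). All 7 overlap between the groups, miR-127-3p has 5 Prx1 libraries above every Ocn library, and the first 3 Prx1 points of miR-541-5p and miR-382-5p lie below the Ocn range.

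None of the 7 tested members passed the test between the groups. With edgeR at an adjusted p under 0.05, 0 of 7 members passed, against 32 of all entries tested (13.7%), of which 14 were higher in Ocn (5.98%) and 18 lower (7.69%). With DESeq2, 0 of 7 passed as well. At an unadjusted p under 0.05, 1 of 7 members passed (miR-127-3p), against 26.5% of all tested entries. The CPM of no tested member separated the groups, against 3.85% of all entries. Of the 7 log2 fold changes, 3 lay above 0 and 4 below, with a median of -0.08 beside 0.01 over all entries. Without Prx1 1, 2 and 3 all 7 lay below 0, from -0.87 to -0.12, with a median of -0.31 beside 0.003 over all entries. In that setting 1 of 7 members passed, against 19 of all 237 entries tested. Those libraries were left out for their low member sums, which tends to lower each member value by construction. The values without them are therefore descriptions and add no support.

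The precision sets what could be seen. The members had a median standard error of 0.245 on the log2 scale, beside 0.184 over all tested entries, and the 95% interval of miR-379-5p ran from -0.42 to 0.26. The interval of miR-381-3p was wider, from -1.27 to 0.55, and its coefficient of variation in Prx1 was 93.2%, where counting error alone would give 37.3%. Depth and group overlapped in this design: once the log10 total of each library entered as a covariate, 0 entries passed by edgeR and 40 stood below an unadjusted p of 0.05. For miR-127-3p the value was then -0.78 with a larger SE of 0.366, and all 7 members lay below 0.

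**Figure D4:**
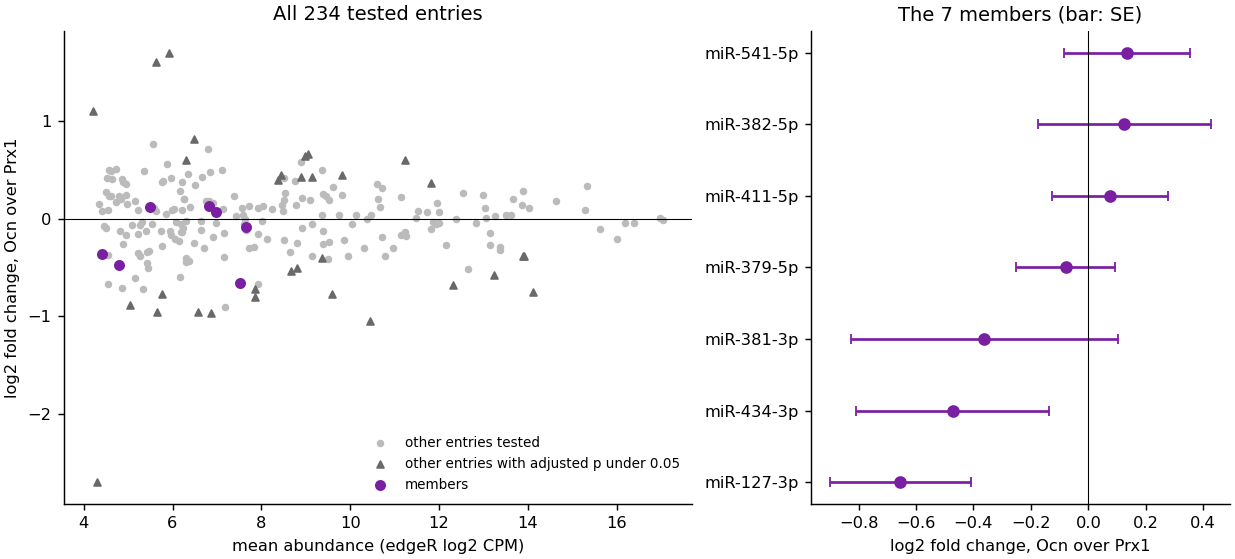
Left, log2 fold change (Ocn over Prx1) of all tested entries against mean abundance (edgeR log2 CPM), with members in purple and other entries under an adjusted p of 0.05 as triangles; right, the 7 members with their standard errors. The members lie among the other entries, and miR-127-3p, at -0.65, is farthest from 0.

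The block next to Meg3, of which 7 members lie opposite Rtl1, took a larger mean share of member counts in Prx1, and miR-127-3p accounted for it. Its 11 members summed to 200 ± 42.5 CPM in Ocn (136.2 to 250 CPM) and 269 ± 98.6 CPM in Prx1 (142.9 to 409 CPM), which was 26.2% ± 3.80 and 32.7% ± 3.72 of the member sum. The 36 distal members summed to 555.5 ± 69.0 CPM and 543.7 ± 170 CPM, or 73.1% ± 3.70 and 66.7% ± 3.70. Without miR-127-3p the other 10 members of the first block summed to 65.0 ± 17.9 CPM in Ocn and 60.1 ± 25.3 CPM in Prx1, or 8.47% ± 1.899 and 7.41% ± 2.72. The shares are descriptions with no test.

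The ratio of miR-127-3p to miR-379-5p, the leading members of these blocks, gives the same counts library by library, free of scaling. It was chosen after the values were seen and adds no separate support. It was 0.567, 0.595, 0.711, 0.649, 0.703 and 0.950 in Ocn 1 to 6. In Prx1 1 to 10 it was 1.02, 0.872, 1.36, 1.103, 1.19, 0.554, 0.468, 1.23, 1.20 and 1.33. All Ocn libraries had more miR-379-5p than miR-127-3p, and 7 of the 10 Prx1 libraries had less. Prx1 2 lay inside the Ocn range, and Prx1 6 and Prx1 7 lay below it.

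The region holds further microRNAs outside the 49, and they were rarer. Of 63 such entries placed between Dlk1 and Dio3, most of them the second arms of the same hairpins, 19 had a count (30.2%), with 298 counts in all, and none passed the filter. miR-382-3p led with 71 counts, at 8.08 ± 3.34 CPM in Ocn and 6.28 ± 5.30 CPM in Prx1. It was followed by miR-299a-3p with 55 counts, miR-376b-5p and miR-540-3p with 41 each, and miR-127-5p with 35.

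A hairpin can yield a mature RNA from its 5′ arm (5p) or its 3′ arm (3p), and the arms present were uneven. Of 22 hairpins with at least 20 counts, 11 were mostly 5p and 11 mostly 3p, and 12 had at least 90% of their counts on 1 arm. miR-379 had 1937 counts of 5p and 5 of 3p, miR-411 had 1228 and 1, and miR-541 had 1123 and 0. miR-127 leaned the other way, with 35 counts of 5p and 1635 of 3p. The most mixed tested hairpin was miR-434, with 104 counts of 5p and 230 of 3p. Its 5p share of pooled counts was 38.0% in Ocn (71 counts of 5p and 116 of 3p) and 22.4% in Prx1 (33 and 114). In 13 libraries 3p was the higher arm, in 2 it was 5p, and there was 1 tie. The 2 were Ocn 4 (17 counts of 5p and 14 of 3p) and Ocn 6 (20 and 19), which raised the pooled Ocn share. No member hairpin had both arms past the filter, so none was among the 44 hairpins whose arm ratio was tested, and adaptor ligation, which can favour 1 arm, bears on such shares between arms.

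The levels of the tested members tended to vary together across mice. All 21 pairs of the 7 members had a Spearman rho above 0, from 0.226 to 0.788 with a median of 0.538, on log2 CPM scaled by TMM over 16 libraries. Over all 27261 pairs of tested entries the median rho was 0.00294, and 5.16% of pairs lay above the members' median. By Pearson's r, 15 of the 21 pairs passed (permutation test with 100000 resamples, 2-sided, Benjamini-Hochberg over 21 pairs), and by rho 7 passed.

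Over all 16 libraries, the closest relations were within the distal cluster. miR-411-5p and miR-381-3p had r = 0.872 (permutation adjusted p = 0.001) and rho = 0.703 (adjusted p = 0.021), and r = 0.812 without the 2 libraries farthest from the median of miR-381-3p. In each pair these 2 libraries were set by 1 member alone, the one with the lower number. miR-411-5p and miR-541-5p had r = 0.669 (permutation adjusted p = 0.011) and rho = 0.788 (adjusted p = 0.009), with r = 0.683 without the 2 farthest. miR-379-5p and its neighbour miR-411-5p had r = 0.711 (permutation adjusted p = 0.009) and rho = 0.688 (adjusted p = 0.021), with r = 0.514 without the 2 farthest. miR-382-5p and miR-541-5p, both in Mirg, had r = 0.792 (permutation adjusted p = 0.004), but rho = 0.579 missed the threshold (adjusted p = 0.055), and r was 0.498 without the 2 farthest. Without Prx1 1, 2 and 3 the r of these pairs, in the same order, was 0.727, 0.491, 0.347 and 0.327. Their rho was then 0.451, 0.621, 0.423 and 0.214, and none passed.

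Relations of the members opposite Rtl1 also depended on the libraries included. miR-127-3p and miR-434-3p, which lie close together there, had r = 0.496 (permutation adjusted p = 0.064) and rho = 0.538 (adjusted p = 0.066). The r of miR-434-3p with miR-541-5p was 0.534 (permutation adjusted p = 0.046), but it was -0.03 without the 2 libraries farthest from the median of miR-434-3p, and rho was 0.288 (adjusted p = 0.310), so this r rests on those libraries. The r of miR-434-3p with miR-382-5p, 0.629, was likewise 0.035 without the 2 farthest from the median of miR-382-5p. miR-127-3p with the distal miR-541-5p had rho = 0.559 over all libraries (permutation adjusted p = 0.061), 0.747 with group means subtracted (adjusted p = 0.007) and 0.830 within Prx1 (adjusted p = 0.032). Without Prx1 1, 2 and 3 it was 0.692, the highest of the 21 pairs in those libraries (permutation adjusted p = 0.157). Whether distal pairs differ from pairs across blocks was not tested.

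The covariation depended on which mice were included. With group means subtracted, 18 pairs passed by r, and within the 10 Prx1 libraries 11 passed with a median rho of 0.673. Within the 6 Ocn libraries 0 of 21 passed (exact permutation test, 1 at an unadjusted p under 0.05 by r and 0 by rho), the median rho was 0.20, and 13 pairs lay above 0. Of all pairs of tested entries, 34.1% lay above the members' median in Ocn, against 4.05% in Prx1. Without Prx1 1, 2 and 3 all 21 pairs still had rho above 0 (median 0.423, against 0 over all pairs), but 0 passed (6 at an unadjusted permutation p under 0.05 by r and 5 by rho). In those libraries 11.3% of all pairs of tested entries lay above the members' median. Without Prx1 2 alone, 9 pairs passed by r and 1 by rho, and over all libraries left out singly 1 to 9 passed by rho.

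**Figure D5:**
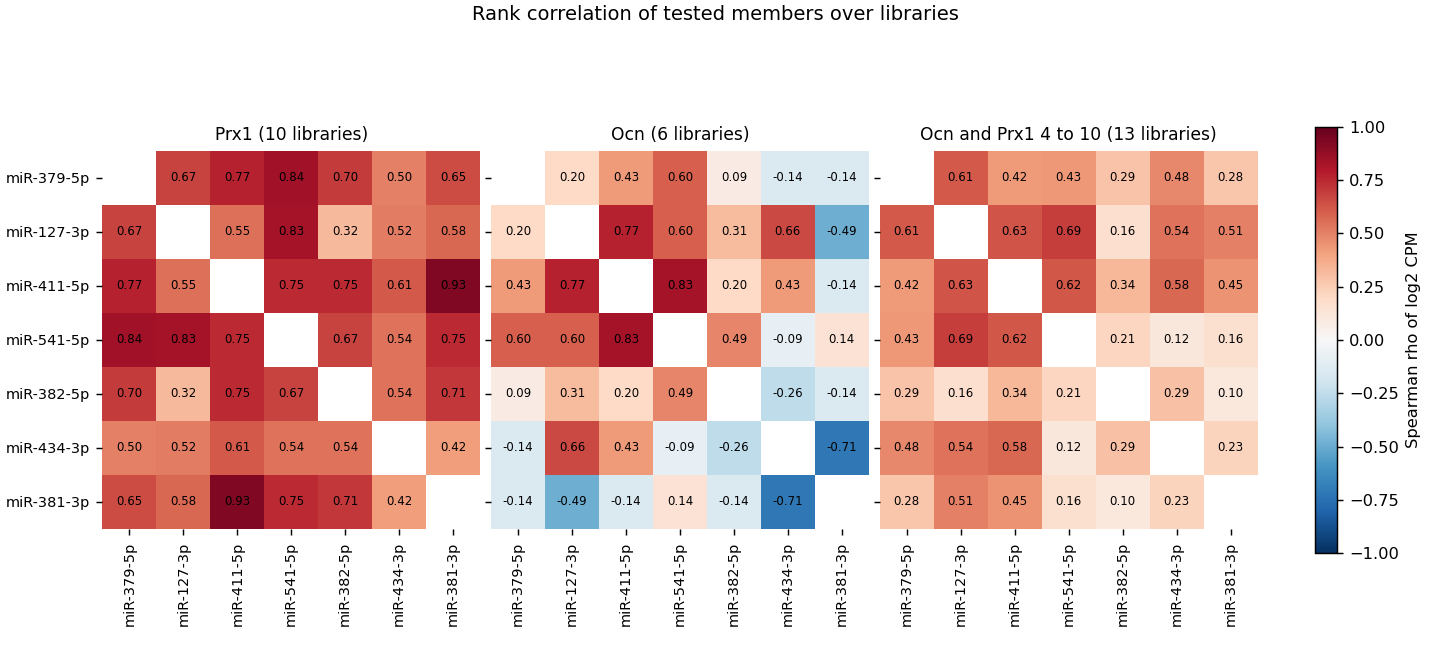
Spearman rho of log2 CPM between the 7 tested members within the 10 Prx1 libraries (left), within the 6 Ocn libraries (middle), and in Ocn with Prx1 4 to 10 (right), coloured from -1 to 1. All 21 pairs lie above 0 on the left (0.321 to 0.927) and on the right (0.104 to 0.692), and 13 of 21 in the middle.

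Marker microRNAs of several other cell sources were abundant in the same EV libraries. Summed over each list, muscle markers had 46726 to 77413 CPM in Ocn and 39885 to 70774 in Prx1, leukocyte markers 39775 to 95534 and 43528 to 71893, and erythroid markers 14654 to 27749 and 18434 to 27471. All 4 markers of each of these lists were detected. Mesenchymal markers, all 5 detected, had 31426 to 43032 CPM in Ocn and 26518 to 34989 in Prx1. Endothelial markers, both detected, had 16712 to 20837 and 12913 to 19289 CPM, and all of these lists lay well above the member sum. Neural markers, of which 5 of 6 were detected, had 750 to 898 CPM in Ocn and 635 to 950 in Prx1. Most of that was miR-128-3p, and the neuronal miR-124-3p was at 0 in every library. Liver markers, both detected, were lowest, with 160 to 304 CPM in Ocn and 139 to 1910 CPM in Prx1, where Prx1 5 was the highest.

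The 3 Prx1 libraries with the lowest member sums also stood at an edge of some of these lists. Prx1 1, 2 and 3 had 26518, 27477 and 28215 CPM of mesenchymal markers, the lowest of all libraries, and 894, 950 and 868 CPM of neural markers, the highest in Prx1. Of 28 relations between a list and miR-379-5p, miR-127-3p, miR-411-5p or miR-541-5p, with group means subtracted, only miR-379-5p with the neural list passed (Pearson's r = -0.774, permutation adjusted p = 0.011; rho = -0.794, adjusted p = 0.013; r = -0.697 without the 2 farthest libraries). Prx1 1, 2 and 3 also had low miR-379-5p, at 146, 140 and 119 CPM. In Ocn, Ocn 5 was highest for both the neural list (898 CPM) and miR-379-5p (221 CPM). The relation of miR-379-5p with the neural list was not computed within each group or without Prx1 1, 2 and 3. All 28 relations were chosen after the values were seen. Beyond these relations, the part of these sources in the member levels was not tested.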

How the data were processed

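Small RNA was counted in 16 libraries of HA-captured EVs. The deposited table holds raw counts per mature microRNA, not normalized by the authors, with the unit taken from the values. Per the submitters' processing notes, cutadapt 1.18 and the build mm10 were used. Not given in the sources used here are the aligner, the counter, the microRNA annotation and the choice between reads and molecular identifiers, so limits on counts of 0 reflect counting error alone.

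The members and lists were chosen with earlier results of these data known. All entries passing filterByExpr (234) were tested with edgeR 4.0.16 in R 4.3.3 (quasi-likelihood F test, TMM, robust, group only), with Benjamini-Hochberg adjustment over them and a threshold of 0.05. The SE was taken as the absolute log2 fold change over the root of F. CPM uses library totals. Arm ratios of 44 hairpins, none of a member, used limma 3.58.1. Pair correlations used log2 CPM with a prior count of 2. The 2 farthest libraries were those farthest from the median of the pair's lower-numbered member, or of the marker list. Members named were those tested, the 15 with the highest mean CPM, and those at 0; of other microRNAs of the region, the 5 highest. miR-341-3p, miR-370-3p, miR-376a-3p, miR-380-5p, miR-665-3p and near copies in sequence fall outside this rule and were chosen after their values were seen. The tests were tried on simulated data. No library repeated another: the closest of 60 within-group pairs, Prx1 2 and Prx1 3, differed with chi-square 5.04 per degree of freedom. The next closest, Prx1 6 and Prx1 7, differed with 13.1. Alternatives were DESeq2 1.42.0, other scalings and filters, thinned counts, covariates and libraries left out.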

Additional observations from a re-analysis of the deposited data

How the results depend on the processing

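Against 32 entries called, 19 were called without Prx1 1, 2 and 3 (chosen after seeing the data), 21 with counts thinned to the shallowest library, 0 with the log10 library total as covariate (40 at an unadjusted p under 0.05), 42 with DESeq2, and 24 to 36 with single libraries left out. Upper quartile scaling shifted the median log2 fold change over all entries by 0.12 and gave 26 higher and 11 lower calls, against 14 and 18. Members called were 0 under 26 of 28 alternatives and 1 (miR-127-3p) without Prx1 1, 2 and 3, at -0.87, and without Prx1 7, at -0.75, so leaving out single libraries gave 0 to 1. Of all entries tested, 19 of 237 were called without Prx1 1, 2 and 3, and 35 of 242 without Prx1 7. Signs reversed, with none called, as follows. miR-379-5p was 0.036 with upper quartile scaling, 0.024 with the replicate block, 0.013 with Prx1 1 to 6 only, and -0.17 to 0.033 with single libraries left out (above 0 without Prx1 8). miR-381-3p was 0.63 with the replicate block. miR-382-5p was -0.24 without Prx1 1, 2 and 3, -0.022 with the covariate, -0.13 with thinned counts, and -0.012 to 0.37 with single libraries left out (below 0 without Prx1 2 or Prx1 3). miR-411-5p was -0.17 without Prx1 1, 2 and 3, -0.13 with the covariate, and -0.011 to 0.22 with single libraries left out (below 0 without Prx1 3). miR-541-5p was -0.12 without Prx1 1, 2 and 3 and -0.23 with the covariate. miR-127-3p and miR-434-3p lay below 0 in every alternative that tested them (28 and 27); miR-381-3p was tested in 18. Of 15 pairs called, 0 were called in Ocn alone, 0 without Prx1 1, 2 and 3, and 9 to 18 with single libraries left out. The log2 ratio of summed CPM stayed below 0 in all 19 alternatives (-0.31 to -0.03). The difference in members detected, 6.70, was 1.07 at equal depth and 5.50 to 7.70 with single libraries left out. Replicate numbers paired no libraries by the labels, same-number deviations correlated at 0.022 to 0.202, no library matched its own number best, and a replicate block gave 27 calls and 0 members. The causes were not tested, and 36 detected members were too low to test.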

Other observations

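The liver microRNA miR-122-5p reached 1644 CPM in Prx1 5, against group levels of 11.3 CPM in Ocn and 171 CPM in Prx1 that include this library; miR-127-3p and miR-379-5p were also highest in Prx1 5. With group means subtracted, the liver list (miR-122-5p and miR-192-5p) passed with neither: Pearson's r was 0.211 for miR-379-5p (permutation adjusted p = 0.544, rho = -0.238, adjusted p = 0.552; r = -0.464 without the 2 farthest libraries) and 0.386 for miR-127-3p (permutation adjusted p = 0.233, rho = 0.171, adjusted p = 0.614; r = 0.042 without the 2 farthest), over 16 libraries and among 28 relations.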
